A study of Mus musculus with 4 samples.

Results

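The aryl hydrocarbon receptor (gene Ahr), its partner Arnt and 5 of the receptor's target genes were followed through stem cells of mouse hair follicles. The 7 genes were taken by symbol from the deposited table of 55401 genes: Ahr, Arnt, Ahrr, Cyp1a1, Cyp1b1, Tiparp and Xdh, and each symbol matched 1 row. The libraries came from C57BL/6 mice in anagen, when the follicle grows, and no genotype other than the strain is given. Of the 4 libraries, 2 came from mice on a normal diet and 2 from mice given a high-fat diet for 4 months. The labels give no sorting method, age or sex and do not say if each library is a mouse of its own, so p-values reflect the spread among these 4 libraries alone, and part of it may be technical. The set was chosen by symbol but selected on the diet contrast as well, since it was proposed when the fold changes between the diets were known, so the values of the 7 genes are given as descriptions with standard errors and no p-value. How many of them lay past the threshold of the fit over all genes, and of its alternatives, is stated in 1 place, as a description.

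The receptor is a ligand-activated transcription factor of the bHLH-PAS family. It waits in the cytoplasm with Hsp90 and co-chaperones, binds planar pollutants or tryptophan-derived molecules, enters the nucleus and pairs with Arnt on DNA elements whose core reads GCGTG. Cyp1a1 and Cyp1b1, P450 enzymes, are its classical targets, and Ahrr and Tiparp are targets whose products feed back to restrain the receptor. In skin the receptor is known for its part in responses to ultraviolet light and pollutants and in terminal differentiation of keratinocytes.

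Total counts lay between 8590570 and 9940848 per library, so that 3 counts, taken as the floor of detection, corresponded to 0.291 to 0.359 CPM (counts scaled to library size after TMM adjustment). Over all genes 162 were higher and 33 lower with the high-fat diet of 14479 tested, by edgeR's quasi-likelihood test at an adjusted p under 0.05. All 11 bulge stem cell markers examined, among them Krt15, Cd34, Lgr5, Sox9 and Lhx2, were measured in every library, with summed levels of 14520 and 16480 CPM (normal diet) and 20370 and 18910 CPM (high-fat diet). Most of this sum is Krt5, Krt14 and Krt15, keratins shared with basal epidermis, of which Krt14 was the 1 gene of the list called (higher, edgeR). Cd34, Lgr5, Sox9, Lhx2, Nfatc1 and Tcf7l2 had negative log2 fold changes, from -0.49 for Lhx2 to -0.11 for Tcf7l2, that did not pass. Itga6, Krt15, Krt5 and Tcf7l1 had positive ones, of 0.45, 0.34, 0.30 and 0.21, that did not pass either, so the list did not share a direction. Of 5 adipocyte markers Adipoq, Plin1, Cidec and Lep were at 0 in every library, and the sum of the list, from Fabp4 alone, was 0.194 and 0.419 CPM (normal diet) and 0.357 and 1.79 CPM (high-fat diet). Because these are bulk libraries, a larger share of cells that express a gene and more RNA per cell cannot be told apart.

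With the high-fat diet, Ahr stood at more than 3 times its level with the normal diet, while Arnt did not differ beyond the spread between libraries. Among the targets, Xdh and Cyp1b1 stood higher, Tiparp overlapped between the diets, and Cyp1a1 and Ahrr were near or under the floor. The 5 genes that passed the filter on low counts were Ahr, Arnt, Xdh, Cyp1b1 and Tiparp. Of these, 2 (Ahr and Xdh) were past the adjusted threshold that 1.35% of all tested genes passed, and 3 (Ahr, Xdh and Cyp1b1) did not overlap between the diets, a separation that 44.6% of all tested genes showed. These counts describe genes picked with the contrast known and say nothing more. Without either normal diet library, 0 of the 5 were past the threshold, and without either high-fat diet library Ahr alone was. With limma 0 were at either pseudocount, with library totals only Ahr alone was, and without a count filter or with a replicate block Cyp1b1 was too.

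Ahr (chromosome 12, positions 35497974 to 35535038 on mouse build GRCm38, minus strand, 6163 exonic bases) had 128 and 134 counts (normal diet) against 366 and 406 (high-fat diet). In CPM these were 12.4 and 14.0 against 43.5 and 48.6, or 13.2 ± 1.13 against 46.0 ± 3.54 (mean ± SD, n = 2 per diet). Both high-fat libraries lay far above both normal diet libraries, and the libraries of a diet lay close together. The fitted change was 3.48-fold, a log2 fold change of 1.80 ± 0.21 (SE), and 1.87% of tested genes had one at least as large. Leaving out any single library moved it only between 1.72 and 1.89. An antisense gene model, Gm48236, shares 127 exonic bases with Ahr, and whether the counting used strand is not given in the sources used here. Gm48236 itself had 0 and 0 counts (normal diet) and 2 and 1 counts (high-fat diet).

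Arnt, the obligate DNA-binding partner of the receptor and also of the hypoxia-inducible factors (chromosome 3, positions 95434388 to 95497240, plus strand), had 1059 and 791 counts against 751 and 732. The CPM were 102.9 and 82.8 (normal diet) and 89.4 and 87.5 (high-fat diet). The high-fat libraries lay between the normal diet libraries, so the diets overlapped. The log2 fold change was -0.07 ± 0.15 (SE), and leaving out the first normal diet library turned it to 0.099.

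**Figure D1:**
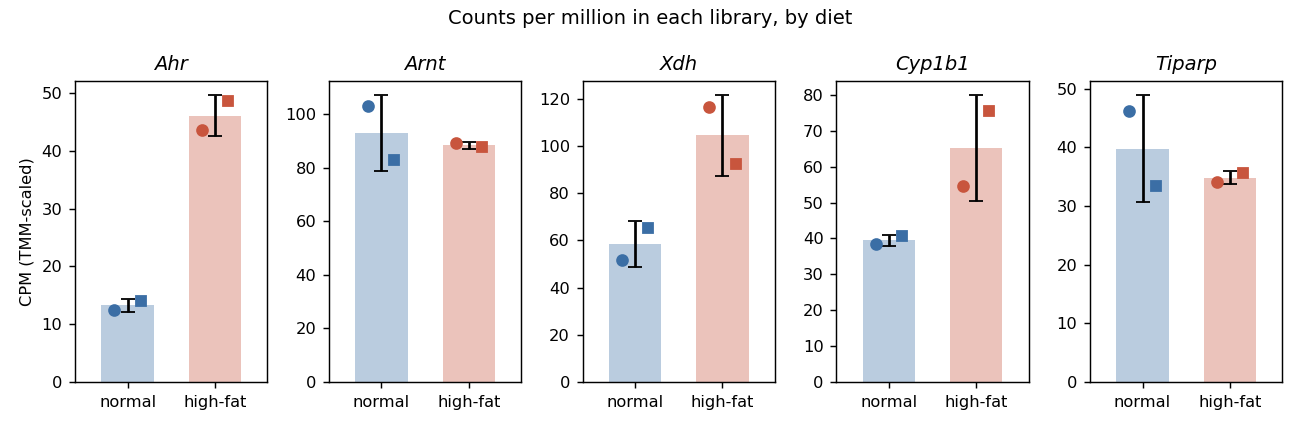
TMM-scaled CPM (vertical axes, each starting at 0) of the 5 genes that passed the filter, by diet. Bars are means of 2 libraries, whiskers 1 SD, circles the first and squares the second library of a diet; Ahr goes from 13.2 to 46.0 CPM, while the values of Arnt and Tiparp overlap between the diets.

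The balance of receptor and partner transcripts therefore differed between the diets. On the FPKM scale, which divides by exonic length, the ratio of Ahr to Arnt was 0.157 and 0.220 (normal diet) and 0.633 and 0.721 (high-fat diet). That length joins the exons of all annotated transcripts, 3 for Ahr and 11 for Arnt, so a comparison between genes is approximate. In all 4 libraries Arnt transcripts outnumbered Ahr transcripts by this measure. The ratio rests on the same counts as the change in Ahr and adds no independent evidence of it.

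Xdh encodes xanthine oxidoreductase, which turns hypoxanthine into xanthine and uric acid and can release reactive oxygen (chromosome 17, positions 73883895 to 73950196, minus strand). Its counts were 532 and 623 (normal diet) and 979 and 773 (high-fat diet). In CPM these were 51.7 and 65.2 against 116.5 and 92.4. The libraries of each diet were spread, but the lower high-fat value stayed above the higher normal diet value. The fold was 1.79, with a log2 fold change of 0.84 ± 0.17 (SE) that ranged from 0.66 without the first high-fat library to 1.01 without the second normal diet library.

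Cyp1b1 encodes a P450 enzyme that oxidises estrogens, retinoids and polycyclic hydrocarbons (chromosome 17, positions 79701537 to 79715061, minus strand). Its counts were 396 and 388 (normal diet) and 460 and 632 (high-fat diet), or 38.5 and 40.6 CPM against 54.7 and 75.6. The normal diet libraries were nearly equal, and the second high-fat library stood well above the first. The log2 fold change was 0.72 ± 0.19 (SE). It was 0.47 without the second high-fat library and 0.93 without the first, so the size of the difference depended on which high-fat library was kept.

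Tiparp (also called PARP7) encodes a mono-ADP-ribosyltransferase that modifies the receptor and limits its activity (chromosome 3, positions 65528410 to 65555518, plus strand). Its counts were 476 and 319 against 286 and 298, or 46.2 and 33.4 CPM (normal diet) against 34.0 and 35.6 CPM (high-fat diet). Only the first normal diet library stood apart, and the second lay just under both high-fat libraries. The log2 fold change was -0.19 ± 0.21 (SE), and leaving out the first normal diet library turned it to 0.064. The divergent antisense gene 4931440P22Rik shares 223 exonic bases with Tiparp and had 2, 13, 7 and 7 counts in the 4 libraries, normal diet first.

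**Figure D2:**
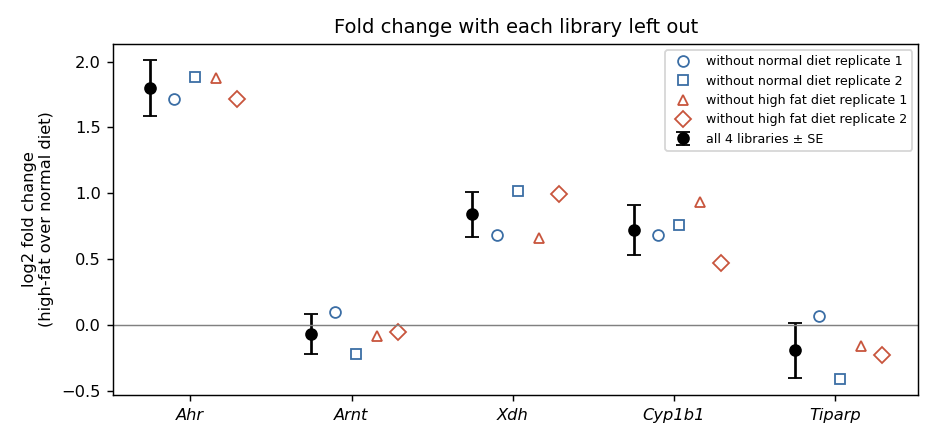
Log2 fold change (high-fat over normal diet, vertical axis) of the 5 genes in all 4 libraries, with its standard error (black), and with each library left out (open symbols). Ahr stays between 1.72 and 1.89, Xdh and Cyp1b1 stay above 0, and Arnt and Tiparp lie on both sides of 0.

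Cyp1a1, the enzyme most used as a readout of an active receptor (chromosome 9, positions 57687928 to 57703824), was not detectably expressed. It had no count in either normal diet library (0 and 0), where the floor of 3 counts lies at 0.291 and 0.314 CPM and the upper Poisson bounds at 0.358 and 0.386 CPM, and 2 and 1 counts in the high-fat libraries. The exact two-sided Poisson intervals (95%) of the latter run from 0.242 to 7.23 and from 0.0253 to 5.57 counts and cover counting error only. No library exceeded the floor of 3 counts, so no fold is given and a difference between the diets was not detectable at this depth. Ahrr, the repressor that competes with the receptor for Arnt (chromosome 13, positions 74211118 to 74292331, minus strand), had 1 and 0 counts (normal diet) and 0 and 10 counts (high-fat diet). Only the second high-fat library exceeded the floor (10 counts, Poisson interval 4.795 to 18.4), and the other high-fat library had none, so its values overlapped between the diets.

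Ordered by FPKM with the normal diet, Arnt (11.9 ± 1.94) and Tiparp (9.40 ± 2.25) came first, followed by Cyp1b1 (6.96 ± 0.19) and Xdh (6.54 ± 1.004), and then Ahr (2.21 ± 0.16; SD, n = 2 each). The ranges of Arnt and Tiparp overlapped, as did those of Cyp1b1 and Xdh, while Ahr lay apart below them. With the high-fat diet the order was Xdh (11.0 ± 1.70), Cyp1b1 (10.8 ± 2.53), Arnt (10.7 ± 0.0707), Tiparp (7.74 ± 0.318) and Ahr (7.24 ± 0.615). The first 3 overlapped, and so did Tiparp and Ahr, which spanned 7.51 to 7.96 and 6.80 to 7.67 FPKM. Ahr thus moved from a level apart from the other 4 to one overlapping Tiparp. The order between genes is approximate, because the exonic length joins all annotated transcripts. These number 14 for Xdh and 11 for Arnt, against 3 each for Ahr, Cyp1b1 and Tiparp. Averaged over the libraries, Ahr ranked at the 69.6th percentile of genes with a count and the other 4 between the 80.05th and the 84.7th.

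**Figure D3:**
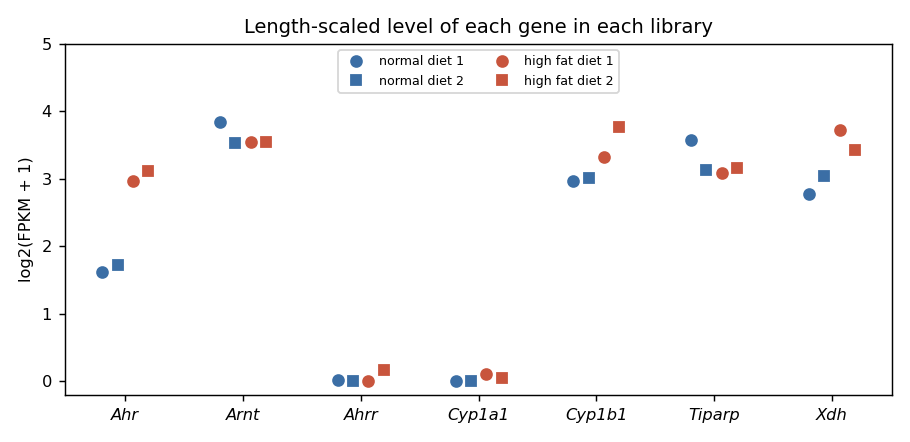
Length-scaled level of the 7 genes, as log2(FPKM + 1), in each library (circles and squares are the first and second library of a diet). Ahr is the lowest of the 5 expressed genes with the normal diet, and Ahrr and Cyp1a1 lie near 0 in all 4 libraries.

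Promoter sequences of the targets were searched for the core to which the receptor binds with Arnt. RefSeq windows (GRCm38.p6, from 250 bases before to 50 after the transcription start) were found for 5 of the 7 genes, and not for Ahr and Xdh. Each of the 5 held the core GCGTG, searched on both strands, as did 32.4% of all 32851 windows of 300 bases in the table. The same letters are also 1 of the cores (ACGTG or GCGTG) that hypoxia-inducible factors bind with Arnt. The longer form TNGCGTG was in 1 of the 5, Ahrr, and in 5.1% of all windows. Ahrr held 3 cores, a number reached by 3.9% of windows. The sequences of the 4 targets are given to set 2 targets that were expressed beside 2 that were near 0. They end before the RefSeq start of the window or, for Tiparp, before the first annotated exon. The Cyp1a1 window precedes the start at position 57697613 and lies within the span of the gene, whose longer annotated transcript begins further upstream at 57687928. The sequences hold no annotated exon of a protein-coding gene, run 5′ to 3′ on the gene's strand, and carry the core, or its reverse complement CACGC, in capitals. The Tiparp window also holds exon sequence of the antisense gene 4931440P22Rik.
Cyp1b1, chr17:79715062-79715311, minus strand: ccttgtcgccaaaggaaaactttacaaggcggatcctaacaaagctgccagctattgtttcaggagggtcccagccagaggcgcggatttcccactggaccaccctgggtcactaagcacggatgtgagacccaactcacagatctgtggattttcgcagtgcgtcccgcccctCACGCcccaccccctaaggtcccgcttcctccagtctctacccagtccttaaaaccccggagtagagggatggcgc
Tiparp, chr3:65528197-65528409, plus strand: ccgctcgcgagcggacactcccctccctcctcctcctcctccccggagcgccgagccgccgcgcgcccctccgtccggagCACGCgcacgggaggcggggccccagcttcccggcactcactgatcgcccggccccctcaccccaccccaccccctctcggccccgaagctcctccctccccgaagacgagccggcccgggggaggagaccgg
Ahrr, chr13:74292332-74292581, minus strand: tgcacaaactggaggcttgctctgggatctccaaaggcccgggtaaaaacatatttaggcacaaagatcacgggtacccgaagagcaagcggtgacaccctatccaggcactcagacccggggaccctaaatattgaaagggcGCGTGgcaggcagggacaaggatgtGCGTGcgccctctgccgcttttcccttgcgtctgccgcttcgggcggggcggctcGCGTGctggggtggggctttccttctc
Cyp1a1, chr9:57697363-57697612, plus strand: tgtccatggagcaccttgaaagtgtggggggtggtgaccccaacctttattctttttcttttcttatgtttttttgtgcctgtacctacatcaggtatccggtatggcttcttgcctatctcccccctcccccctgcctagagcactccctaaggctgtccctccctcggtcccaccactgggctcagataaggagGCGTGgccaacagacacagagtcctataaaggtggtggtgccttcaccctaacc

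The core began 76 bases upstream of the start in Cyp1b1 and 170 in Tiparp, both on the strand opposite the gene, and 54 in Cyp1a1 and 29 in Arnt on the gene's own strand. In Ahrr it began 107, 82 and 27 bases upstream, and the nearest of these was the 1 that fitted TNGCGTG. Every window found held a core, so its presence could not separate expressed from near-silent targets in this set, and Xdh had no window. Windows of this length do not reach the distal elements through which Cyp1a1 is known to respond.

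Around the 7 genes, 8 lists of pathway genes were followed, with 116 genes tested. Of these 1 was higher and 2 were lower with the high-fat diet (2.59%, beside 1.35% of all tested genes, 1.12% higher and 0.228% lower), and the median log2 fold change was 0.00, the same as over all genes (edgeR). An unadjusted p under 0.05 was reached by 30 of the 116 genes, a larger share than the 13.3% of all tested genes (1922 genes, edgeR). Of these 30, 7 were among the 10 tested genes of epidermal differentiation. The 13.3% is the background for the counts at an unadjusted p given for each list. The lists were written with earlier results of these data known and support no direction.

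Of 12 genes of the cytoplasmic complex and its turnover, 0 passed (2 at an unadjusted p under 0.05, edgeR; DESeq2 called 1 lower, the Hsp90 gene Hsp90aa1, and limma 0). The chaperone gene Hsp90ab1 was abundant and stood at 2397 and 2650 CPM (normal diet) and at 2695 and 2470 CPM (high-fat diet). Its values overlapped between the diets, and it was the 1 gene of the list with a positive log2 fold change (0.03). The list had 10 negative ones and a median of -0.12 (edgeR). Hsp90aa1 had the lowest log2 fold change of the list, with means of 336 against 247 CPM (log2 fold change -0.44 ± 0.13, SE, with edgeR adjusted p = 0.135). Without a count filter edgeR called Hsp90aa1 lower (adjusted p = 0.0333). Xpo1 and Ptges3 followed by p, at -0.37 ± 0.15 and -0.28 ± 0.14 on the log2 scale (SE), without passing.

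Of 15 tested bHLH-PAS relatives and coactivators 0 passed (3 at an unadjusted p under 0.05, edgeR; DESeq2 called 1 higher, Epas1, and limma 0). Epas1, a hypoxia-inducible factor that also pairs with Arnt, had the smallest p, with 11.4 and 16.3 CPM against 31.3 and 27.6 CPM (edgeR adjusted p = 0.0663). Epas1 was also called higher by edgeR with the replicate block (adjusted p = 0.0143) and without a count filter (0.00448). The clock genes Arntl and Clock also lay above 0, at 0.89 ± 0.24 and 0.35 ± 0.14 on the log2 scale (SE), without passing (adjusted p = 0.12 and 0.302, edgeR). Arntl was called higher without a count filter (adjusted p = 0.0498, edgeR). Hif1a stood at 251 and 247 against 245 and 211 CPM. The relatives Sim1, Sim2, Npas1 and Hif3a had 0 counts in every library.

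Among 24 other tested genes listed as targets of the receptor, 1 passed, Serpinb2, and 0 were lower (6 at an unadjusted p under 0.05, edgeR). DESeq2 called 1 higher and 1 lower, and limma 0. Whether the receptor acts on each listed gene was not tested. Serpinb2 encodes the plasminogen activator inhibitor PAI-2 of keratinocytes (chromosome 1, positions 107511423 to 107535478). It rose 5.38-fold, with 41 and 93 counts against 304 and 312 (edgeR adjusted p = 0.0082), and the call was lost without either normal diet library (adjusted p = 0.456 and 0.139) and with limma (0.123 and 0.153 for its 2 pseudocounts). On the log2 scale the change was 2.43, or 1.92 and 3.20 when the first or the second normal diet library was left out. Other xenobiotic enzymes and regulators did not pass and differed in direction. The P450 gene Cyp2b10 stood at 6.90 and 12.7 against 20.8 and 19.4 CPM, with no overlap between the diets (edgeR adjusted p = 0.18; called higher without a count filter). The glucuronosyltransferase gene Ugt1a7c, which shares exons with its neighbours so that its own value is uncertain, had 24 and 41 counts against 14 and 5. The values of 2 others overlapped: Aldh3a1 stood at 114.0 and 134.5 against 129.1 and 116.7 CPM, and Nqo1 at 12.1 and 12.5 against 12.4 and 17.3 CPM. Nfe2l2, a regulator of antioxidant enzymes, had a log2 fold change of -0.01 ± 0.16 (SE). Slc7a5, the tryptophan transporter, went the other way without passing, with 83.3 and 65.9 against 49.7 and 36.4 CPM (edgeR adjusted p = 0.0814). It was called lower with DESeq2 (adjusted p = 0.0216), with the replicate block (0.00865) and without a count filter (0.00114). Cdkn1a, a cell cycle inhibitor, had a log2 fold change of 0.76 ± 0.22 (SE) and an edgeR adjusted p of 0.132. Without a count filter edgeR called Cdkn1a higher (adjusted p = 0.0488). Cyp1a2, the liver member of the Cyp1 family, had 1 count in the 4 libraries, and Gsta1 and Il22 had 0. The genes of this list did not share a direction, with log2 fold changes above 0 in 14 and below 0 in 10 of them and a median of 0.08.

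Of 10 tested genes of terminal differentiation linked to the receptor in keratinocytes, 0 were higher and 2 lower (7 at an unadjusted p under 0.05, edgeR), the filaggrin gene Flg and the repressor Prdm1. DESeq2 called 2 higher (Flg2 and Sprr1a) and 2 lower (Prdm1 and Hrnr), and limma 0. Prdm1 had 628 and 444 counts against 215 and 247, a fall to 0.513 of its level (edgeR adjusted p = 0.0414), and its call was lost without any 1 of the 4 libraries (adjusted p between 0.121 and 0.464) and with limma (0.18 and 0.19). Flg had 568 and 1977 counts against 169 and 286 (edgeR adjusted p = 0.0414), a change of -2.27 on the log2 scale that became -2.93 or -1.03 when the first or the second normal diet library was left out. The Flg call was lost with DESeq2 (adjusted p = 0.219), with limma (0.271 and 0.264) and with a filter of 1 CPM in 2 libraries (0.0542). It was also lost when either normal diet library was left out (adjusted p = 0.456 and 0.266) and without the first high-fat library (0.0712). Flg2 and Sprr1a, both of the cornified envelope, lay above 0 by 0.68 ± 0.15 and 1.05 ± 0.24 on the log2 scale (SE) and missed the threshold (adjusted p = 0.0522 and 0.0558, edgeR). Both were called higher with DESeq2 (adjusted p = 0.00836 for Flg2), with the replicate block (0.0147 for Flg2) and without a count filter. Ovol1, a transcription factor reported downstream of the receptor, had 42 and 77 counts against 115 and 123 (edgeR adjusted p = 0.184). It was called higher without a count filter. The members did not share a direction, with 6 positive and 4 negative.

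Transcripts of enzymes that handle tryptophan-derived ligands were thinly represented, and ligands themselves were not measured. Of 17 genes of tryptophan metabolism 5 were high enough to test and 0 passed (1 at an unadjusted p under 0.05, edgeR; 0 with DESeq2 and limma). Ido1, Ido2, Kmo, Aadat and Acmsd had 0 counts in every library, where the floor of 3 counts lies at 0.291 to 0.359 CPM, and Tdo2 had 4 counts in 1 normal diet library. Il4i1, an amino acid oxidase that yields receptor ligands, had 15 and 10 counts against 12 and 10. Maob, a monoamine oxidase, had 12 and 20 counts against 59 and 48 (log2 fold change 1.96 ± 0.58, SE, with edgeR adjusted p = 0.157). Without a count filter edgeR called Maob higher (adjusted p = 0.0492). Kyat3 and Kyat1 had log2 fold changes of -0.41 ± 0.34 and 0.29 ± 0.32 (SE).

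For Xdh, 20 genes of purine breakdown and of the molybdenum cofactor were tested and 0 passed (4 at an unadjusted p under 0.05, edgeR; 0 with DESeq2 and limma). Their median log2 fold change was -0.13, with 13 negative. Pnp, the phosphorylase that supplies hypoxanthine, stood at 48.4 and 44.7 against 34.1 and 35.4 CPM (edgeR adjusted p = 0.331), and Ampd3 and Nt5c2, earlier steps, had log2 fold changes of -0.41 ± 0.15 and -0.58 ± 0.17 (SE). Gda, guanine deaminase, which makes xanthine, had a positive one of 0.65 ± 0.28 (SE; edgeR adjusted p = 0.339). The steps that feed Xdh gave no call, which with 2 libraries per diet does not show that they were unchanged. Urad had 0 counts in every library and Uox, which degrades uric acid, 14 counts in the first normal diet library alone.

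For Tiparp, 17 other genes of ADP-ribose transfer and removal gave 0 calls (4 at an unadjusted p under 0.05, edgeR; 0 with DESeq2 and limma). Parp14 and Parp4 had positive log2 fold changes of 0.70 ± 0.24 and 0.61 ± 0.20 and Parp1, the DNA repair enzyme, a negative one of -0.34 ± 0.13 (SE). For the P450 enzymes, 13 partners and relatives gave 0 calls (3 at an unadjusted p under 0.05, edgeR; 0 with DESeq2 and limma). Those of smallest p were Cyp2j6, Hmox2 and Cyp4f39, with log2 fold changes of 0.73 ± 0.28, -0.46 ± 0.18 and 1.15 ± 0.49 (SE). Por, the reductase that feeds electrons to microsomal P450s, stood at 47.8 and 51.7 against 46.9 and 46.4 CPM.

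**Figure D4:**
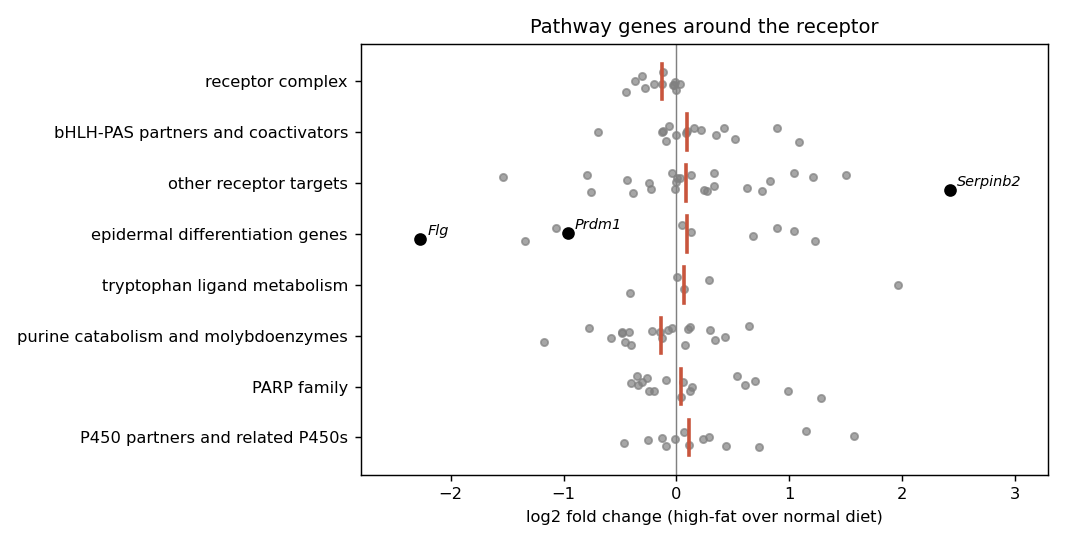
Log2 fold change (high-fat over normal diet, horizontal axis) of each tested gene in the 8 pathway lists. Grey points did not pass, black named points did (edgeR, adjusted p under 0.05), and vertical red bars are list medians, which lie between -0.13 and 0.11.

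Marker lists of other cells differed in whether they stood apart between the diets. Of 7 suprabasal epidermal markers 5 were higher with the high-fat diet (edgeR, adjusted p under 0.05), and their summed level was 1495 and 3112 CPM (normal diet) and 4641 and 5930 CPM (high-fat diet). The gap between the normal diet libraries lay mostly in Krt1 (298 and 1121 CPM) and Krt10 (548 and 1158 CPM), while Dsg1a of the same list stood at 121 and 138 against 358 and 436 CPM. Over all tested genes 1.12% were called higher. Of 7 tested markers of the upper follicle and sebaceous gland 2 were higher (edgeR, adjusted p under 0.05), Gata6 3.78-fold and Krt79 1.57-fold. Scd1, Lrig1 and Elovl3 of this list had negative log2 fold changes of -0.37, -0.24 and -0.02. Mgst1 and Plet1 had positive ones of 0.37 and 0.11, and these genes did not pass. That list summed to 1470 and 1299 against 1618 and 1414 CPM, where the diets overlapped. Fibroblast and dermal papilla markers, cells in which Cyp1b1 is known to be expressed, summed to 46.3 and 65.4 CPM against 94.1 and 81.4 CPM, with 0 of 7 tested passing and Corin at 0. Endothelial and mural markers summed to 17.4 and 20.0 against 29.5 and 36.7 CPM, with 0 of 6 passing. Immune markers summed to 20.8 and 45.0 against 50.3 and 60.6 CPM, with 0 of 6 tested passing and Itgam at 0. Melanocyte markers overlapped between the diets, at 48.2 and 28.1 against 36.5 and 29.4 CPM, with 0 of 4 tested passing. The part of these cells in the values of Ahr, Xdh and Cyp1b1 was not tested.

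By the root mean square difference of centred log2 CPM over the 4 libraries, the genes most like Ahr among 10956 were Sdr16c5, a retinol dehydrogenase family member (0.0862), Dsg1a, a desmosomal cadherin of suprabasal cells (0.0898), and Ndufa4l2, a mitochondrial protein (0.0961). Sdr16c5 stood at 3.21 and 4.19 against 12.02 and 13.03 CPM. With 4 libraries many genes can take such a shape, and the likeness is a description of these libraries.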

How the data were processed

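For each gene and library the deposited table holds a raw count and an FPKM. The submitters' processing notes name HISAT2 2.0.1, cutadapt 1.9.1 and bcl2fastq 2.17.1.14. Which counter, strand setting, annotation and build were used is not given in the sources used here. Deposited FPKM equalled count over exonic size and total count within 0.005 for all 221604 values. Of 55401 identifiers 55141 occur in GENCODE M21 (GRCm38), 99.4% of them at the same position.

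Counts were tested in R 4.3.3 with edgeR 4.0.16 (quasi-likelihood, TMM, default filter of about 10 counts in 2 libraries and 15 in total, Benjamini-Hochberg adjustment, threshold 0.05), without a replicate term. A gene could pass the filter through 1 diet alone. DESeq2 1.42.0, limma 3.58.1 on log2(FPKM + 1) and log2(FPKM + 0.1), other scalings and filters, leaving out each library and a replicate block were the alternatives. Standard errors are the log2 fold change divided by the square root of F. EdgeR's common biological coefficient of variation came to 20.3%.

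The members and lists were chosen with earlier results of these data known. Named genes were the 7 members, called genes of each list, its 3 genes of smallest p and the 3 genes most like Ahr with a mean FPKM of at least 1; for brevity some are given only in counts, and other list genes were named for their role or after their values were seen.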

Additional observations from a re-analysis of the deposited data

How the results depend on the processing

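Over all genes, 162 higher and 33 lower became 275 and 119 with DESeq2, 2 and 0 with limma at both pseudocounts (2078 and 2029 genes at an unadjusted p under 0.05), 408 and 225 without a count filter, and 65 lower with library totals only. Leaving out 1 library gave 0 to 81 higher and 0 to 2 lower; edgeR called 0 without the first normal diet library, with 1488 at an unadjusted p under 0.05. In the pathway lists, 1 higher and 2 lower became 4 and 4 with DESeq2, 0 and 0 with limma, 10 and 5 without a filter, 2 higher with upper-quartile scaling and 1 lower with a filter of 1 CPM in 2 libraries, and leaving out 1 library gave 0 to 2 higher and 0 to 1 lower. The 2 diets share replicate numbers, but across genes the difference between the first and second library correlated by only -0.00811 between the diets, so the numbers are not taken to pair the libraries. With the replicate block edgeR called 308 higher and 111 lower over all genes and 5 and 4 in the lists. With TNGCGTG in place of GCGTG, 1 member promoter in place of 5 held the motif. Of the 5 tested members, Ahr, Xdh and Cyp1b1 kept a positive log2 fold change under every alternative. Without the first normal diet library, that of Arnt turned from -0.07 to 0.099 and that of Tiparp from -0.19 to 0.064; leaving out 1 library in turn gave -0.22 to 0.099 for Arnt and -0.41 to 0.064 for Tiparp. Library totals alone shifted the median of all genes to -0.08 and limma to -0.06 and -0.08. With limma the log2 fold change of Ahr was 1.36 and 1.67, on the log2(FPKM + pseudocount) scale. The cause of these differences between tools was not tested.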
